A study of Mus musculus with 6 samples.

Results

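The cerebellin genes Cbln1, Cbln2 and Cbln4 and the vesicle-priming genes Cadps and Cadps2 were examined in lower molar tooth germ and neighbouring oral tissue of the mouse embryo. They are 5 of the 19057 genes with a probe of exactly 1 gene symbol on the array, and 8 of its 45281 probes. They were named with the comparison of these tissues already known: Cbln1 and Cadps2 were among the genes with the largest positive differences, and the others are their relatives. Their differences between the tissues are therefore given as a description, without a test. The study used 6 Illumina bead arrays of 1 colour (Cy3). Of these, 3 hold libraries titled tooth germ and 3 hold libraries titled oral tissue, all from embryos of the outbred CD-1 mouse on embryonic day 13.5. Each library is a pool over several animals, and a shared library number marks a shared litter, so the arrays form 3 pairs. No genotype, transgene or treatment is given for either group, and total RNA was used throughout.

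The labels are in conflict over the tissue of each library. By title and description 3 libraries are tooth germ, but by source name and tissue field those 3 are oral tissue and the remaining 3 are tooth germ. Libraries are named here by title. If the tissue fields are right, every difference below keeps its size and changes its sign. Msx1, a homeobox gene of dental mesenchyme, read 12.36 to 12.67 in titled tooth germ, against 10.78 to 11.41 in titled oral tissue. The muscle regulator Myod1 read 7.46 to 7.52 in titled tooth germ, against 8.71 to 9.13 in titled oral tissue. Among the marker lists, 5 of 8 dental mesenchyme genes were higher in titled tooth germ, as were 5 of 7 dental epithelium genes (1 was lower) and 6 of 10 surface epithelium genes (1 was lower), while 8 of 8 skeletal muscle genes were lower (limma, adjusted p under 0.05). Arrays of 1 titled group correlated at 0.995 to 0.997 over all probes, and arrays of different groups at 0.988 to 0.993 (Pearson's r). In tissue of mixed cell types, fewer cells of a type and less RNA per cell cannot be told apart.

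Cerebellins are small secreted proteins with a C1q domain, the fold shared with complement C1q. In the brain they leave the presynaptic neuron, bind neurexins on it and receptors across the cleft, and so hold the synapse together. Cbln1 is the form made by cerebellar granule cells, Cbln2 and Cbln4 are made in other brain regions, and Cbln4 also binds the netrin receptor Dcc. Cadps and Cadps2 encode the CAPS proteins, cytosolic factors that ready dense-core vesicles for calcium-triggered release of neuropeptides and neurotrophins. All 5 genes have been studied chiefly in neurons and neuroendocrine cells.

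Values are signals on the deposited log2 scale, on which the median of all values was 7.01 and the upper quartile 7.84. A probe near 7.01 is dim, and differences of dim probes may be understated. Of the 5 genes, Cbln1 and Cadps2 were higher in titled tooth germ, each by about the same amount, and Cbln4 and Cadps were lower in every litter. The brightest probe of Cbln2 was close to the dim end in all arrays.

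Cbln1 read 8.96, 8.89 and 8.78 in titled tooth germ, against 7.49, 7.56 and 7.58 in titled oral tissue. The groups stood far apart and each was tight, with means of 8.88 ± 0.093 and 7.54 ± 0.048 (SD, n = 3 each). The log2 difference was 1.34 (SE 0.074), or 2.52-fold, and it lay between 1.20 and 1.48 in the 3 litters. By the size of positive differences Cbln1 stood at rank 10 of all genes.

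Cbln2, whose protein also binds neurexins, read 7.09, 7.07 and 7.08 in titled tooth germ, against 7.31, 7.20 and 7.08 in titled oral tissue. The groups touched, since oral tissue library 3 read as low as the tooth germ libraries. The log2 difference was -0.12 (SE 0.0545), and by litter it ran from -0.22 to -0.0027. A dimmer Cbln2 probe read 6.89, 6.88 and 6.97 in titled tooth germ, against 6.81, 6.97 and 6.89 in titled oral tissue, a difference of 0.026 with no common sign over the litters.

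Cbln4 read 7.47, 7.76 and 7.70 in titled tooth germ, against 8.31, 8.39 and 7.80 in titled oral tissue. The groups did not overlap, but oral tissue library 3 lay only 0.037 above the highest tooth germ library, whereas the other oral tissue libraries were well clear. The tooth germ mean was 7.64 ± 0.15 and the oral tissue mean 8.17 ± 0.32 (SD, n = 3 each), a log2 difference of -0.52 (SE 0.14). By litter the difference was -0.84, -0.63 and -0.10, so litter 3 contributed little. Without oral tissue library 3 it was -0.71. Cbln3, the remaining cerebellin, whose protein needs Cbln1 for secretion in the cerebellum, was dim on both of its probes: its main probe read 6.77 to 6.84 in titled tooth germ, against 6.76 to 6.86 in titled oral tissue.

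Cadps2 had its brightest probe at 9.86, 9.84 and 9.48 in titled tooth germ, against 8.20, 8.45 and 8.57 in titled oral tissue. The tissues were separated by a gap of 0.91, although the spread within each was wider than for Cbln1. The tooth germ mean was 9.73 ± 0.22 and the oral tissue mean 8.41 ± 0.19 (SD, n = 3 each), a log2 difference of 1.32 (SE 0.12), or 2.50-fold. It was 1.66, 1.39 and 0.91 in litters 1, 2 and 3. The gene stood at rank 12 by the size of positive differences.

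The other Cadps2 probes showed little of this. A probe annotated to a cDNA that is not among RefSeq's Cadps2 transcripts averaged 7.03 ± 0.0093 in titled tooth germ, against 6.92 ± 0.083 in titled oral tissue (SD, n = 3 each), a difference of 0.11. The last probe, annotated to the same transcript as the brightest probe, read 6.81 to 6.87 in titled tooth germ, against 6.81 to 6.82 in titled oral tissue, a difference of 0.024. Both lie at the dim end of the scale in every array. Which transcripts these probes detect was not tested, so the Cadps2 difference rests on 1 probe, and the mean of its 3 probes differed by 0.49.

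Cadps, the paralogue of Cadps2, read 7.02, 6.99 and 6.91 in titled tooth germ, against 7.67, 7.21 and 7.12 in titled oral tissue. The tooth germ libraries lay close to the median of all values, and oral tissue library 1 stood above the other oral tissue libraries. The tooth germ mean was 6.97 ± 0.055 and the oral tissue mean 7.34 ± 0.29 (SD, n = 3 each), a log2 difference of -0.36 (SE 0.11). By litter it was -0.65, -0.23 and -0.21. Without oral tissue library 1 the difference was -0.20 (SE 0.047), and without litter 1 it was -0.22.

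**Figure D1:**
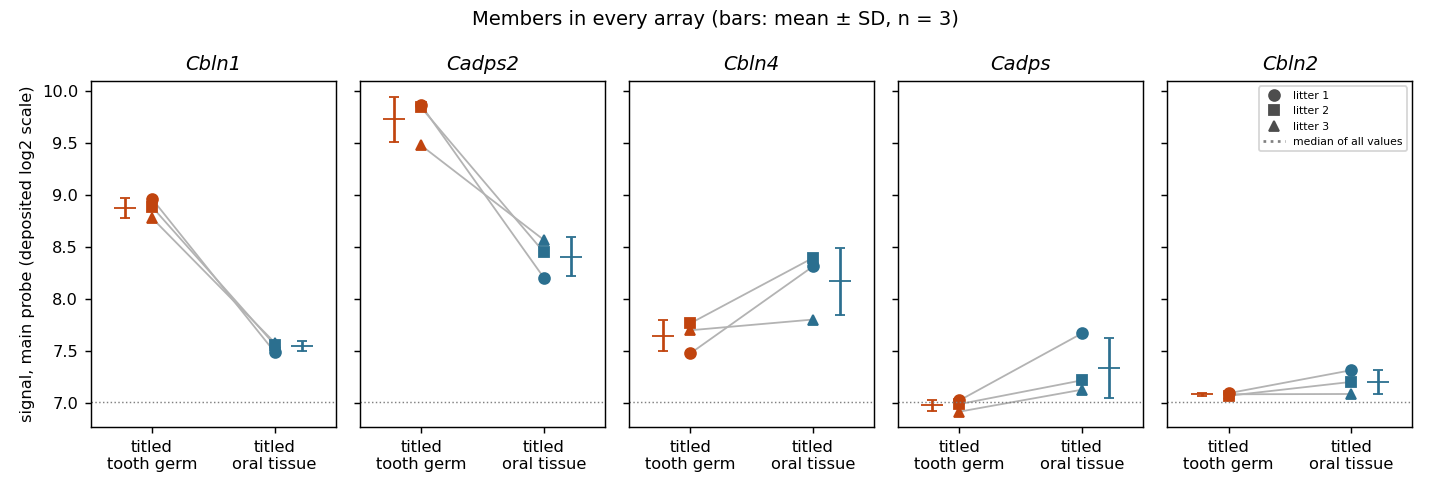
Signal of the main probe of each gene (vertical axis, deposited log2 scale) in the titled tooth germ libraries (left in each panel) and the titled oral tissue libraries (right), with grey lines joining libraries of 1 litter, bars for the mean ± SD (n = 3) and a dotted line at the median of all values (7.01). Cbln1 and Cadps2 fall from left to right in all litters and Cbln4 and Cadps climb in all litters; panels show different probes, whose levels cannot be set against each other.

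In the fit across all 19057 genes, 5.81% of genes were called at an adjusted p under 0.05, 2.39% higher and 3.42% lower in titled tooth germ. Of the 5 genes 2 were called higher (Cbln1 and Cadps2), 1 was called lower (Cbln4) and 2 were not called (Cbln2 and Cadps). The groups of 3 arrays did not overlap for 4 of the 5 genes, against 23.1% of all genes. All 3 litters gave 1 sign of the difference for 5 of 5 genes, against 41.3% of all genes. Of 18 alternative settings 6 called Cbln4 and 4 called Cadps, and with litter as a block both were called. Because the genes were chosen on this contrast, nothing is read from any of these counts.

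**Figure D2:**
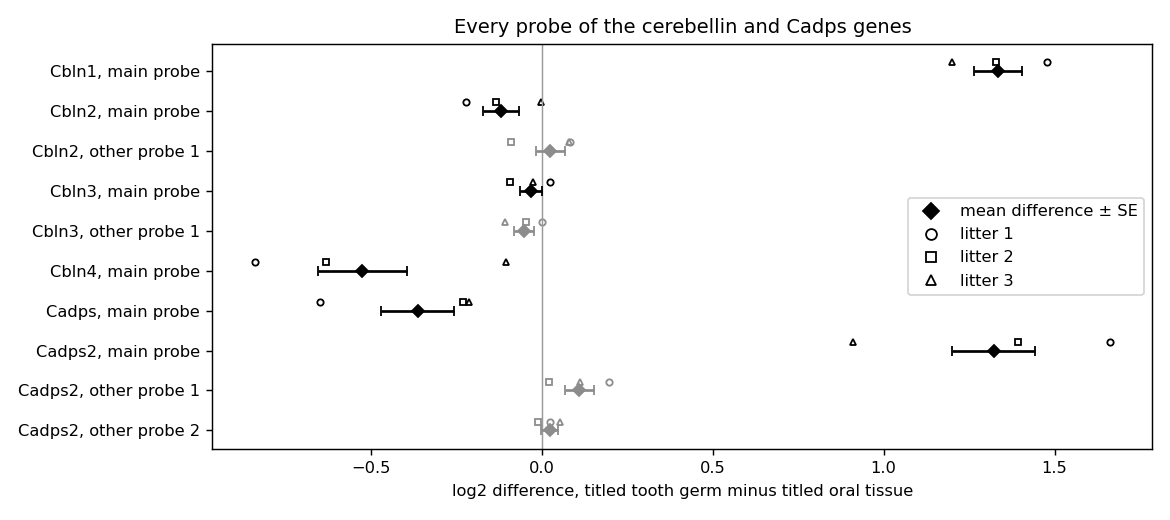
Log2 difference of titled tooth germ minus titled oral tissue for every probe of the cerebellin and Cadps genes (diamonds, mean ± SE from the fit over all 45281 probes, n = 3 arrays per group; black, main probe; grey, other probes), with open symbols for the 3 litters. The main probes of Cbln1 and Cadps2 lie at 1.34 and 1.32, those of Cbln4 and Cadps at -0.52 and -0.36, and all other probes between -0.12 and 0.11.

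To set the paralogues side by side, the bases before the RefSeq start sites of Cadps and Cadps2 are shown together with those of Cbln4. These are the 3 of the 5 genes printed here, each as the 250 bases before the start, on the minus strand of GRCm38.p6, written 5′ to 3′. The capitals mark matches on either strand to the letters GGGCGG (the GC box), CACGTG (the palindromic E-box) or CCAAT (the CCAAT box). TATAAA was searched as well and had no match in these windows. No motif's letters are contained in another's, but the GC box matches of Cbln4 overlap by 1 base.
Cadps2, chr6:23839422-23839671: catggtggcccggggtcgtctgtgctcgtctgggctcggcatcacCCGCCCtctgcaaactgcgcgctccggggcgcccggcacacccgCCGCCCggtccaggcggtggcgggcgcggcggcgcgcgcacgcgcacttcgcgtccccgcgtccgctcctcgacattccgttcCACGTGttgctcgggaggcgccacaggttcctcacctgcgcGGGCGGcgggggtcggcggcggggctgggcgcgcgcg
Cadps, chr14:12823080-12823329: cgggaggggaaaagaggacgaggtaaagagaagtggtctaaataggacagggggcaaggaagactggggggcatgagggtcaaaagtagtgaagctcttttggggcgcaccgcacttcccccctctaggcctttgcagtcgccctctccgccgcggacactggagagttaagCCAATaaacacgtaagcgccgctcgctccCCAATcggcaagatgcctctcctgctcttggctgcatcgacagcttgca
Cbln4, chr2:172043467-172043716: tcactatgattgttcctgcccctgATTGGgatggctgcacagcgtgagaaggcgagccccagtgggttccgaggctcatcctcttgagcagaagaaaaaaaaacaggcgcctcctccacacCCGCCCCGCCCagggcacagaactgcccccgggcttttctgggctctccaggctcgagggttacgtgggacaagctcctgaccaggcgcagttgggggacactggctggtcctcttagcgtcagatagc
The Cadps2 window was 78.0% G and C with 44 CpG dinucleotides, and 97.9% of 32841 RefSeq mouse promoters of this length had a lower GC share. The Cadps window was 58.0% G and C with 14 CpG dinucleotides, and the Cbln4 window 60.8% with 11, against a median promoter of 52.4% with 6. Cadps2 held 3 GC box matches and 1 E-box match, Cadps held 2 CCAAT matches, and Cbln4 held 2 GC box matches and 1 CCAAT match. Of all promoters 32.7% held a GC box match, 6.02% an E-box match, 33.9% a CCAAT match and 12.4% a TATAAA match. These matches describe the letters only, and no binding was measured.

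The genes whose profile over the 6 arrays was most like that of each member were found by the mean absolute difference of values centred on each gene's own mean. The search covered 9331 genes above the median gene in mean signal and members whose main probe spanned more than 0.5, which left out Cbln2. Prelp, a leucine-rich proteoglycan of the extracellular matrix, was nearest to Cadps2, with a mean absolute difference of 0.033. It read 10.00, 10.10 and 9.72 in titled tooth germ, against 8.48, 8.73 and 8.81 in titled oral tissue, so that tooth germ library 3 was the lowest of its group and oral tissue library 1 the lowest of the other, as for Cadps2. The next were Itgbl1, an integrin beta-like secreted protein (0.11), and Zfp385c, a zinc-finger gene (0.11). The same 3 genes were nearest to Cbln1, with Itgbl1 at 0.097 and both Prelp and Zfp385c at 0.10. A dimmer Itgbl1 probe differed by 0.10 between the tissues, where its main probe differed by 1.31.

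Nearest to Cbln4 were Scx, the transcription factor of tendon precursors (0.099), Pcdh9, a protocadherin (0.10), and Gata2, a zinc-finger transcription factor (0.11). Scx read 8.68, 8.74 and 8.83 in titled tooth germ, against 9.16, 9.35 and 8.84 in titled oral tissue. As for Cbln4, oral tissue library 3 was close to the tooth germ libraries and the other oral tissue libraries were higher. Nearest to Cadps were Prkcb, a protein kinase C (0.033), Kcnk2, a potassium leak channel (0.042), and Dtna, a dystrobrevin of the dystrophin complex (0.062). Prkcb read 7.28, 7.27 and 7.20 in titled tooth germ, against 8.07, 7.53 and 7.44 in titled oral tissue, with oral tissue library 1 the highest, as for Cadps. These genes were picked for likeness over the same arrays, so their differences carry no test.

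**Figure D3:**
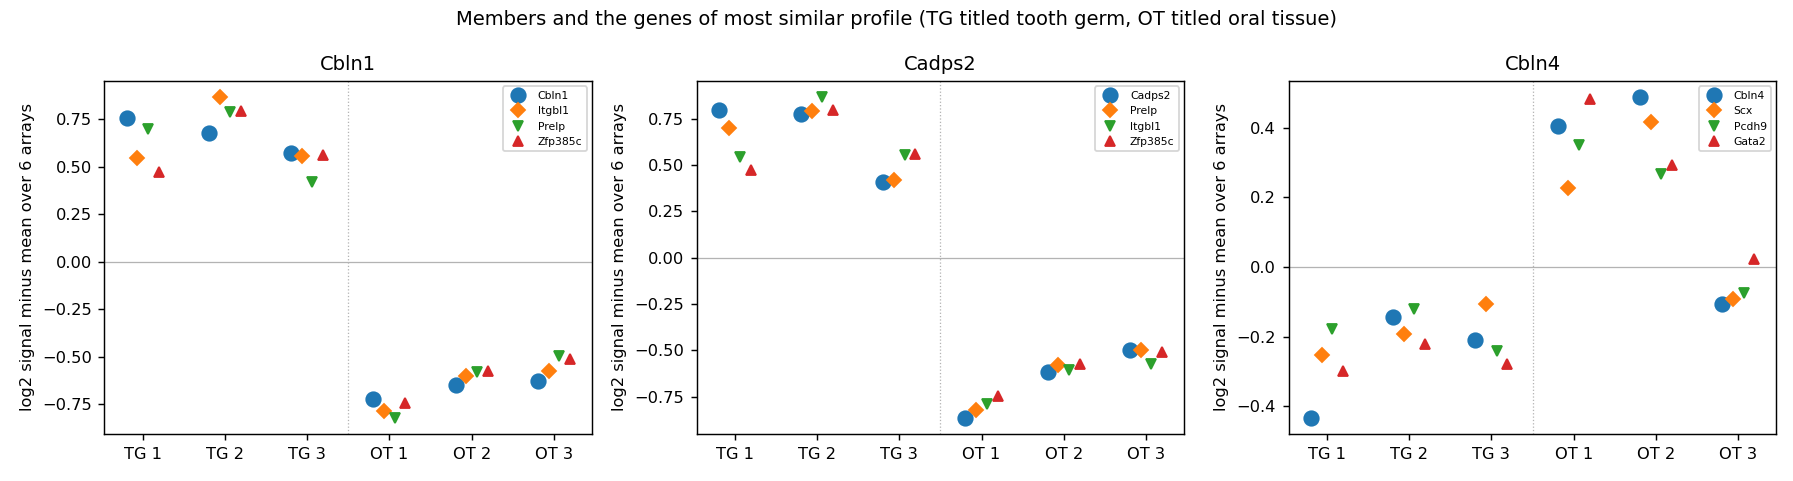
Signal minus each gene's mean over the 6 arrays (vertical axis, log2 scale) in the titled tooth germ libraries (TG) and the titled oral tissue libraries (OT) for Cbln1, Cadps2 and Cbln4 (large circles) with the 3 genes of most similar profile. Prelp follows Cadps2 with a mean absolute difference of 0.033, and Scx, Pcdh9 and Gata2 share with Cbln4 the low value of oral tissue library 3.

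Some lists of cell type markers had their highest mean in oral tissue library 1, as Cadps did, and others did not. The 9 measured neuron markers had a mean level between 7.41 and 7.53 in the titled tooth germ libraries, against 8.51, 7.89 and 8.04 in titled oral tissue libraries 1, 2 and 3. Oral tissue library 1 was thus the highest in both. Of the 9 markers 4 were lower in titled tooth germ (limma, adjusted p under 0.05) and 5 were not called, with a median log2 difference of -0.64, and -0.44 without oral tissue library 1. The pan-neuronal tubulin Tubb3 and the neurofilament gene Nefl read at most 7.04 and 6.84 in any array. Of 5 Schwann cell and glial markers 1 was lower (Sox10) and 4 were not called. Oral tissue library 1 was also the highest for the means of the skeletal muscle markers (11.36, 10.66 and 11.13 in oral tissue libraries 1, 2 and 3) and of the macrophage markers (8.60, 8.33 and 8.53). The means of the Schwann cell and glial markers (7.38, 7.27 and 7.48) and of the endothelial markers (8.73, 8.79 and 8.93) were highest in library 3. The neuron, muscle and macrophage means were higher in library 3 than in library 2, whereas Cadps was lower (7.12 against 7.21). The 4 called neuron markers were split in this. Isl1 (8.17 against 8.54) and Gap43 (9.52 against 9.54) were lower in library 3, and Nefm (9.08 against 8.86) and Dcx (8.65 against 8.23) were higher. The part of any of these cell types in the Cadps difference was not tested.

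**Figure D4:**
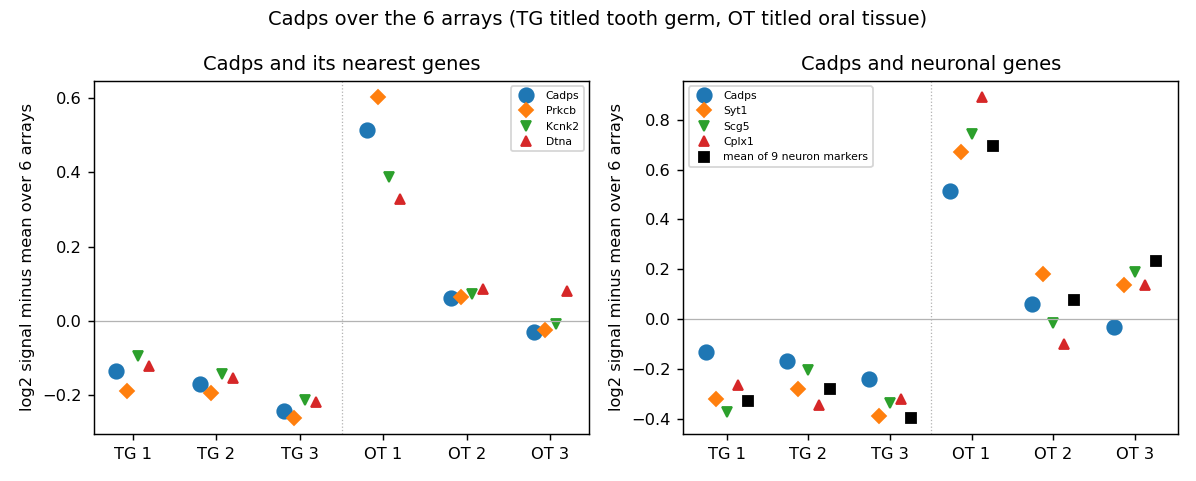
Signal minus the mean over the 6 arrays (vertical axis, log2 scale) in the titled tooth germ libraries (TG) and the titled oral tissue libraries (OT), for Cadps with its nearest genes (left) and with Syt1, Scg5, Cplx1 and the mean of 9 neuron markers (right). Oral tissue library 1 is the highest array for every gene shown and for the neuron marker mean.

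For Cbln1 and Cadps2 the markers that were higher in titled tooth germ were those of dental and surface tissue. The dental mesenchyme markers averaged 10.15 to 10.42 in titled tooth germ, against 9.24 to 9.68 in titled oral tissue. The dental epithelium markers averaged 8.96 to 9.06 in titled tooth germ, against 8.25 to 8.33 in titled oral tissue, and the surface epithelium markers 10.16 to 10.27 in titled tooth germ, against 9.59 to 9.74 in titled oral tissue. Skeletal muscle markers averaged 9.12 to 9.34 in titled tooth germ, against 10.66 to 11.36 in titled oral tissue. Which of these tissues carries Cbln1 or Cadps2 RNA was not tested.

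Of the receptor, vesicle and neurotrophin lists described next, none held a gene called higher in titled tooth germ in the fit without litter. The 3 measured cerebellin receptors were the neurexins Nrxn2 and Nrxn3 and the netrin receptor Dcc. Of these, 0 were called by limma and 0 had an unadjusted p under 0.05, a count given without the share of all genes. Their median log2 difference was -0.0024, against 0.0026 for all genes. Nrxn2 read 7.33, 7.31 and 7.22 in titled tooth germ, against 7.23, 7.16 and 7.23 in titled oral tissue, a difference of 0.080 (95% interval -0.026 to 0.19). Dcc read 7.06 to 7.09 in titled tooth germ, against 7.11 to 7.19 in titled oral tissue, a difference of -0.080 (95% interval -0.17 to 0.0080). The other probes, all dimmer, differed by -0.0031 to 0.044 for Nrxn2 and by -0.043 to 0.056 for Dcc. All 3 receptors lay near the dim end of the scale, which limits what could be seen.

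Of 10 measured genes for cargo and processing enzymes of dense-core vesicles, the organelles that CAPS proteins prime, 1 was lower, 0 were higher and 9 were not called. All 10 differences were below 0, as were 48.2% of those of all genes, and the list's median was -0.18. Without oral tissue library 1 this did not hold for Chga and Pcsk1, at 0.0205 and 0.0174. Of the 10 genes 3 had a mean no higher than the median of all values. At an unadjusted p under 0.05, 5 of the 10 were lower and 0 higher, a count given without the share of all genes. The called gene was Scg5, the 7B2 chaperone of a prohormone convertase, which read 7.09, 7.26 and 7.13 in titled tooth germ, against 8.21, 7.45 and 7.66 in titled oral tissue. Its difference was -0.61 (SE 0.15, limma adjusted p = 0.0313), and oral tissue library 1 was again the highest. Without that library the Scg5 difference was -0.39, and the call was lost in 8 of 18 alternatives. With litter as a block 4 members were lower. Cpe, the carboxypeptidase that trims prohormones, read 11.28 to 11.53 in titled tooth germ, against 11.50 to 11.82 in titled oral tissue, and was not called.

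Of 21 measured genes for docking, priming and fusion of vesicles, 2 were lower, 0 were higher and 19 were not called. At an unadjusted p under 0.05, 2 of the 21 were higher and 4 lower, counts given without the share of all genes. The list's median was -0.017. Syt1, the calcium sensor of fast release, fell to 7.46, 7.50 and 7.39 in titled tooth germ, against 8.45, 7.96 and 7.92 in titled oral tissue. Its difference was -0.66 (SE 0.12, limma adjusted p = 0.00574), and -0.49 without oral tissue library 1 (limma adjusted p = 0.00179). A dimmer Syt1 probe was called lower as well, and the remaining probe was not called. Unc13b, a Munc13 priming factor, which like the CAPS proteins has a MUN domain, fell by 0.32 on the log2 scale (SE 0.076, limma adjusted p = 0.0273), and 7 of 18 alternatives did not call it, among them the fit without oral tissue library 1 (limma adjusted p = 0.0801). Its values were 8.42, 8.41 and 8.47 in titled tooth germ, against 8.77, 8.66 and 8.85 in titled oral tissue.

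Another priming factor of the same family pointed the other way. Unc13c read 7.64, 7.81 and 7.76 in titled tooth germ, against 7.53, 7.57 and 7.31 in titled oral tissue, a difference of 0.27 (SE 0.080) that did not pass (limma adjusted p = 0.0820, and 0.0350 with litter as a block). Cplx1, a complexin that acts in vesicle fusion, read 6.98, 6.90 and 6.92 in titled tooth germ, against 8.13, 7.14 and 7.38 in titled oral tissue. It did not pass either (limma adjusted p = 0.0804, and 0.00779 with the block). With litter as a block 4 members of this list were lower and 1 was higher.

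Of 5 measured neurotrophins and their receptors, 0 were called by limma and 1 was called lower with litter as a block. At an unadjusted p under 0.05, 1 of the 5 was lower, a count given without the share of all genes. The median was -0.14. Bdnf, whose release CAPS2 promotes in neurons, read 7.65, 7.71 and 7.63 in titled tooth germ, against 7.90, 7.75 and 7.77 in titled oral tissue. Its difference was -0.14 (95% interval -0.29 to 0.0040). The other Bdnf probes, all dimmer, differed by -0.025 to 0.052, and the mean of all Bdnf probes differed by -0.015. Ntrk3, the receptor of neurotrophin-3, read 7.18, 7.26 and 7.27 in titled tooth germ, against 7.56, 7.35 and 7.49 in titled oral tissue, a difference of -0.23 (SE 0.062, limma adjusted p = 0.0571). In the fit over all probes a dimmer Ntrk3 probe was called, at -0.37 (SE 0.090, limma adjusted p = 0.0420), and the remaining probe, at -0.13, was not.

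The wider family of C1q-domain genes held calls in both directions. Of 25 such genes other than the members, 3 were higher, 6 were lower and 16 were not called, with a median of -0.033. C1qtnf3, a secreted protein of cartilage and connective tissue, rose to 10.24, 10.34 and 10.00 in titled tooth germ, against 8.75, 9.52 and 9.09 in titled oral tissue (log2 difference 1.07, SE 0.16, limma adjusted p = 0.00177). Its other 2 probes differed by 1.16 and 0.81. Both chains of collagen VIII, a short-chain collagen with a C1q domain at its end, rose as well: Col8a1 by 0.96 (SE 0.091, limma adjusted p = 6.45e-05) and Col8a2 by 0.42 (SE 0.095, limma adjusted p = 0.0220, and 0.0513 without oral tissue library 1).

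The 6 lower genes were C1qtnf2, Emilin2, the cerebellin relative C1ql2 and the 3 chains of complement C1q. C1qtnf2 read 7.41, 7.30 and 7.38 in titled tooth germ, against 8.31, 8.06 and 8.34 in titled oral tissue (log2 difference -0.88, SE 0.082, limma adjusted p = 5.93e-05). Complement C1q is made by macrophages. C1qc, one of its chains, averaged 7.93 ± 0.095 in titled tooth germ, against 8.55 ± 0.19 in titled oral tissue (SD, n = 3 each; log2 difference -0.62, SE 0.098, limma adjusted p = 0.00243). Of 5 other macrophage markers 4 were lower, and their mean level was 8.11 to 8.13 in titled tooth germ, against 8.33 to 8.60 in titled oral tissue; their part in the C1q difference was not tested.

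**Figure D5:**
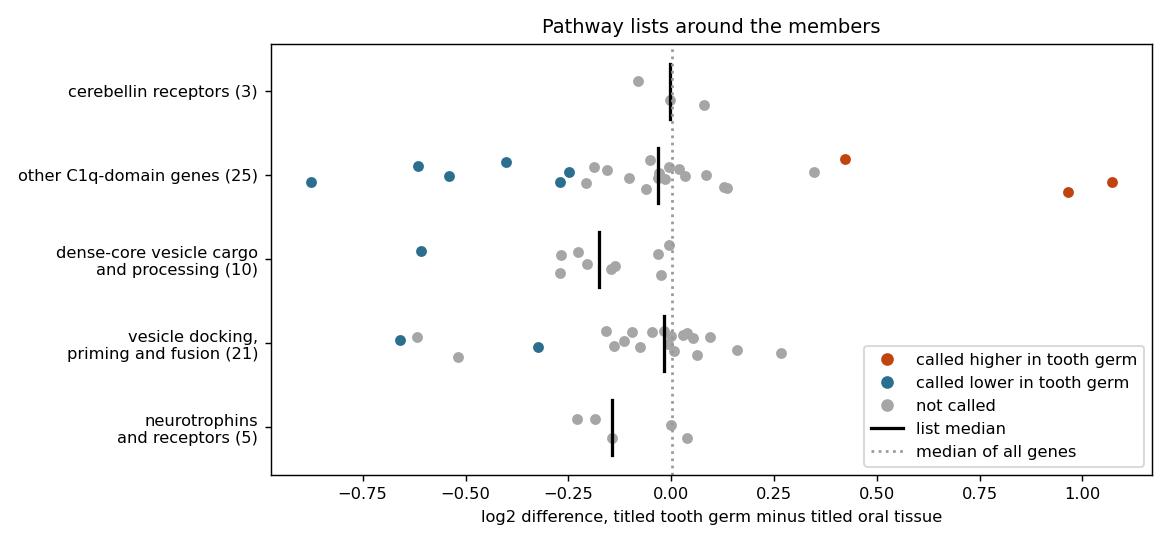
Log2 difference of titled tooth germ minus titled oral tissue (horizontal axis) for the measured genes of 5 pathway lists, 1 point per gene, coloured by the call of limma at an adjusted p under 0.05, with a black bar at each list's median and a dotted line at the median of all genes (0.0026). The called genes above 0 are all C1q-domain genes (C1qtnf3, Col8a1 and Col8a2), and all 10 dense-core vesicle genes lie below 0. Without oral tissue library 1 (not shown) Chga and Pcsk1 were at 0.0205 and 0.0174.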

How the data were processed

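RNA of 6 libraries was measured on Illumina bead arrays. The authors deposited 1 log2 signal for each probe and library. The software is lumi 2.8.0, per the submitters' processing notes; whether the scale is plain log2 or lumi's variance-stabilised form, and the background correction, are not given in the sources used here. Sorted columns differed by at most 0.000827, so the deposited values were quantile normalized already and were not normalized again. Values ran from 6.61 to 14.88. Detection p-values were not used here.

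Probes were named from the platform annotation: 34885 had 1 symbol, 18 several and 10378 none. Each gene was read from its brightest probe (highest mean of 6 values). The difference between titled groups was fitted in limma 3.58.1 under R 4.3.3 (lmFit, eBayes with a trend, 4 residual degrees of freedom) and Benjamini-Hochberg adjustment over 19057 genes. Errors of differences are moderated standard errors. The fit was also run on simulated independent arrays, without the litter pairing of these libraries, so its error rate here was not checked. Pathway lists are described by counts and medians, with no set test. The share of all genes at an unadjusted p under 0.05 is not given, so nothing is read from list counts at that threshold.

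Members, lists and tests were chosen with earlier results of these data known. Named genes are the members, Cbln3, up to 4 called genes of each list by size (or up to 2 of smallest p where none was called), the 3 nearest genes of each member and label checks. Col8a2, C1qb, C1qtnf12, Scg2, Emilin2, C1ql2, Cpe, Cplx1, Unc13c, Nrxn3, Sox10, Tubb3 and Nefl were named after their values were seen. So were Chga, Pcsk1, Isl1, Gap43, Nefm and Dcx. Counts for each list cover its measured genes, and its other genes were not analysed here.

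Libraries of the same number share a litter per the labels. Deviations from the group means over 9528 genes correlated at 0.413, 0.233 and 0.266 in the 3 same-numbered pairs, and between -0.267 and -0.0724 otherwise. Centring on group means pushes the latter below 0 once the former lie above it, so they are no separate evidence. Same-numbered libraries were thus more alike, and the source of this likeness was not tested. Promoter sequences are RefSeq's, build GRCm38.p6, and those of 3 of the 5 members are shown. Cbln1 had no entry, and Cbln2 was left out. The number of arrays limits the precision, and p-values measure the spread between these pooled libraries.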

Additional observations from a re-analysis of the deposited data

How the results depend on the processing

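The signs of the differences of the 5 members were the same under all 18 alternatives. Cbln1 lay between 1.26 and 1.40, Cbln4 between -0.73 and -0.37, Cadps between -0.47 and -0.20 and Cbln2 between -0.18 and -0.047. Cadps2 was 0.49 as the mean of its 3 probes, of which 2 were dim, and 1.15 to 1.53 when single libraries or litters were left out. With litter as a replicate block 1693 genes were called in place of 1107, 736 higher and 957 lower, and 1105 of the 1107 were among them. With libraries or litters left out the count was 549 to 1025, with 195 to 368 higher and 354 to 663 lower; it was lowest without litter 1, 668 without litter 3 and 734 without tooth germ library 2. Lower members of the dense-core vesicle list numbered 1 by default, 4 with the replicate block, 2 with litter as a random effect, with dim probes removed or with array weights, and 0 with the mean of all probes or without a trend; leaving out libraries gave 0 to 2. The docking, priming and fusion list had 2 lower members, 4 with the replicate block and with litter as a random effect, each of which also gave 1 higher member, and 1 to 4 with libraries left out. The neurotrophin list had 0 lower members and 1 with the replicate block, litter as a random effect, dim probes removed, robust shrinkage or array weights, and 0 to 1 with libraries left out. The C1q-domain list had 6 lower members, also 6 with the replicate block, and 3 to 6 with libraries left out (3 without tooth germ library 1, tooth germ library 2 or litter 1); its 3 higher members became 4 with the replicate block, which added C1qtnf12 (limma adjusted p = 0.0120, against 0.127 without it). Among named list genes the replicate block also called Ntrk3, Unc13c, Cplx1 and Scg2 (for Scg2 limma adjusted p = 0.0135, against 0.0505 without the block). Without oral tissue library 1 Col8a2, C1qb and Unc13b were no longer called among the pathway list genes, and Scg2 and Cplx1 were called lower. Cbln3, at -0.030, was 0.0003 without litter 2, and with single libraries or litters left out it lay between -0.0653 and 0.0003. The cause of these changes was not tested. Dim probes limit Cbln2, Cbln3, Cadps and the cerebellin receptors.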

Other observations

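On the main probes, the litters ranked the same way for all 5 members. The difference between the titled tissues, taken in the direction of its mean, was largest in litter 1 and smallest in litter 3 for Cbln1, Cbln2, Cbln4, Cadps and Cadps2, which is 5 of 5 genes. The same order held for 17.3% of the 1107 called genes and for 17.3% of all 19057 genes. For Cadps litters 2 and 3 were close, at -0.23 and -0.21. The order did not hold on the dimmer probes: that of Cbln2 (-0.089) and those of Cadps2 (0.020 and -0.010) were smallest in litter 2. Among called genes the median size of the difference was 0.47 in litter 1, 0.42 in litter 2 and 0.47 in litter 3, so litter 3 was not the smallest at large. This order was noticed after the values were seen, in genes that share the same 6 libraries, and it carries no test.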
